A study of Mus musculus with 2 samples.

Results

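The canonical histone genes are the 67 genes of 32285 in the count matrix whose symbols start with Hist1h, Hist2h, Hist3h or Hist4h: 6 encode the linker histone H1 (Hist1h1) and 61 encode core histones, of which 18 are H2A, 18 H2B, 12 H3 and 13 H4. They were chosen by name and not by any measured value. They were followed in single-cell RNA profiles of mouse lung leukocytes sorted as live CD45.2+ YFP+ cells from zbtb46-cre x rosa26-yfp animals. In these mice every cell whose ancestry ever switched on the dendritic cell (DC) gene Zbtb46 keeps a YFP mark, in both groups, so the sort also holds cells other than DC. One group was 7 days old (neonatal) and the other 8 weeks old (adult). Each age had 2 pools of at least 5 mice, told apart by cell hashtags, and the 2 pools of an age were loaded together on a 10x 3' droplet run, labelled as version 2 chemistry. The pool is the replicate, so n = 2 per age throughout. Age and loading run cannot be told apart, and p-values measure the spread between the pools.

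Core histones form the protein spool around which DNA winds, and H1 sits on the DNA between spools. Most canonical histone genes are copied into RNA when a cell replicates its DNA. Their messages are known to end in a short stem-loop instead of a poly(A) tail, and to be destroyed when replication stops. Some also give a longer, polyadenylated message, which resting and differentiating cells use. The kit primes on poly(A), so the counts cover whatever histone RNA such priming captures, and the levels of different genes are not compared as numbers of molecules. Classical DC come as cDC1, which present antigen to CD8 T cells, cDC2, which prime CD4 T cells, and mature, Ccr7-expressing DC, which migrate to lymph nodes.

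Over 12740 kept cells the histone genes gave 50082 unique molecular identifiers (UMIs, 1 per captured RNA molecule), which is 0.0930% of all UMIs. The linker genes held 26096 of them, or 52.1%, and the core genes 23986. H2A held 22.6% of histone UMIs, H2B 11.8%, H4 8.00% and H3 5.50%. The counts were concentrated: the 3 linker genes Hist1h1e (8683 UMIs), Hist1h1c (8421) and Hist1h1b (7040) made up 48.2%, and the top 15 genes 88.4%. The other genes over 1000 UMIs were the H2A genes Hist1h2ap (4338), Hist1h2ae (2884), Hist3h2a (1097) and Hist2h2ac (1091), the H2B gene Hist1h2bc (3793), the H4 gene Hist1h4d (1839) and the linker gene Hist1h1d (1467). Below them, with UMIs in brackets, came the linker gene Hist1h1a (481) and the H2A genes Hist1h2ab (703), Hist2h2aa1 (431), Hist1h2ac (399), Hist1h2ak (119), Hist1h2af (93), Hist1h2ai (56), Hist2h2ab (37), Hist1h2ad (37) and Hist1h2an (26). The H2B genes were Hist1h2be (441), Hist3h2ba (370), Hist1h2bj (217), Hist1h2bb (167), Hist1h2br (147), Hist1h2bm (139), Hist1h2bg (139), Hist2h2be (120), Hist2h2bb (114), Hist1h2bh (93), Hist1h2bn (64) and Hist1h2bf (45). The H3 genes were Hist1h3e (782), Hist1h3c (745), Hist1h3a (351), Hist1h3f (327), Hist1h3d (183), Hist1h3b (134), Hist1h3i (71), Hist2h3c1 (52), Hist2h3b (51), Hist1h3g (29) and Hist2h3c2 (28), and the H4 genes Hist1h4i (890), Hist1h4h (491), Hist1h4c (242), Hist4h4 (174), Hist2h4 (142), Hist1h4a (125), Hist1h4j (22), Hist1h4b (22) and Hist1h4n (20). These 52 genes had 20 or more UMIs. The remaining 15 had fewer, and 3 of them, Hist1h2bq, Hist1h2ba and Hist1h2aa, had 0.

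The shared stem-loop is shown because the usual histone message ends there. Its presence does not tell that message from a longer, polyadenylated one, since a transcript that runs past the loop holds it too. A 16-base stem-loop was found after the stop codon in the annotated transcript of 45 of the 67 genes (GENCODE M21 on GRCm38), and 23 of these transcripts run 100 or more bases past it. Capitals mark the stem-loop.
Hist1h1c: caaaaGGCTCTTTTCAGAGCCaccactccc
Hist1h1e: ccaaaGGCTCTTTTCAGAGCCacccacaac
Hist1h4d: ccaaaGGCCCTTTTCAGGGCCactaccttc
Hist3h2a: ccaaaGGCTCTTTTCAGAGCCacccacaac
Hist1h2ae: acaaaGGCTCTTTTCAGAGCCattcactta
Hist1h2ap: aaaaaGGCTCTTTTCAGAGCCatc
Hist1h3c: aaaaaGGCTCTTTTAAGAGCCacctaagat
They lie at chr13:23739507-23739536 (Hist1h1c, plus strand), chr13:23621773-23621802 (Hist1h1e, minus), chr13:23581945-23581974 (Hist1h4d, plus), chr11:58955167-58955196 (Hist3h2a, plus), chr13:23570659-23570688 (Hist1h2ae, minus), chr13:21833026-21833049 (Hist1h2ap, minus) and chr13:23745038-23745067 (Hist1h3c, minus). The 3' UTR continues for 840 bases after the loop in Hist1h1c, 1153 in Hist1h1e, 770 in Hist1h4d, 1643 in Hist3h2a and 151 in Hist1h2ae, against 3 in Hist1h2ap and 74 in Hist1h3c. The annotated Hist1h1b transcript has no 3' UTR, and that of Hist1h2bc holds no stem-loop.

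Of the 67 genes, 54 lie on chromosome 13, between 21715763 and 23934851, with 10 on chromosome 3, 2 on chromosome 11 and 1 on chromosome 6. Promoters of 300 bases, 250 before the start to 50 after, were matched for 61 genes (RefSeq, GRCm38.p6). TATAAA stood in 57.4% of them against 13.6% of 32851 promoters, and CCAAT in 85.2% against 37.4%. ATTTGCAT, the octamer known from H2B promoters, stood in 21.3% against 1.74%, and AAACACA, known from H1 promoters, in 14.8% against 7.18%, all searched on both strands. The octamer was found only in H2A (7 of 17) and H2B (6 of 16) promoters, and AAACACA in 5 of 6 linker promoters. The promoters of 4 genes whose counts contrast below are shown with these motifs, on either strand, in capitals.
Hist1h1b: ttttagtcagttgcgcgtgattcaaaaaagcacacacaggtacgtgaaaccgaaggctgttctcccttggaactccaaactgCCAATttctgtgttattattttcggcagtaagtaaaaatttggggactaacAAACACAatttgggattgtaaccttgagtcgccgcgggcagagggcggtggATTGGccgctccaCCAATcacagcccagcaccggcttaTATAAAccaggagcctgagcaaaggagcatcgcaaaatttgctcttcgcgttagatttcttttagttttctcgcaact
Hist1h1c: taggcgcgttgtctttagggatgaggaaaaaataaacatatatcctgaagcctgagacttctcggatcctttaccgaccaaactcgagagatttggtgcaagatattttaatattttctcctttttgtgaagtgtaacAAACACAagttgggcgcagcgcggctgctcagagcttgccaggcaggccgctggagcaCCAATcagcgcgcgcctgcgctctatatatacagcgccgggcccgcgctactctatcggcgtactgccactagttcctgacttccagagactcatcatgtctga
Hist1h2ab: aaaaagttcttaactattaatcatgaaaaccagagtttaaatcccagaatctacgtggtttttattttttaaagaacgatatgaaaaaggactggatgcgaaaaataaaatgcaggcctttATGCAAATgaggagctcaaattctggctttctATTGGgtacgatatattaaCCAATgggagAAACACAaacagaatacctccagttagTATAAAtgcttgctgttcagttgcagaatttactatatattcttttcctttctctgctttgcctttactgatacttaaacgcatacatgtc
Hist1h3c: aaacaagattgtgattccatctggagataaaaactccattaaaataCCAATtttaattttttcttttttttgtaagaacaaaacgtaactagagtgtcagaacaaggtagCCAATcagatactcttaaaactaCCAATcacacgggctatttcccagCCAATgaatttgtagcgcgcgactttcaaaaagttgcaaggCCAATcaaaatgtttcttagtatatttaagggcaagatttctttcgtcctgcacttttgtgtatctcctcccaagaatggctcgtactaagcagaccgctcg
They lie at chr13:21780576-21780875 (Hist1h1b, minus strand), chr13:23738557-23738856 (Hist1h1c, plus), chr13:23750838-23751137 (Hist1h2ab, plus) and chr13:23745472-23745771 (Hist1h3c, minus). Hist1h2ab holds all 4 motifs, Hist1h1b lacks only the octamer, Hist1h1c has CCAAT and AAACACA, and Hist1h3c has CCAAT alone.

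The pools held 4412 and 4444 neonatal and 2030 and 1854 adult cells, with median depths of 3052 to 3722 UMIs per cell. Cells were clustered without histone and cell cycle genes and named from marker lists. Cells with at least 1 UMI of Mki67 or Top2a, 2 genes that mark dividing cells, are called cycling, and the rest other cells. Cycling cells made up 12.6% and 10.6% of the neonatal pools and 4.88% and 4.96% of the adult pools. Some classes were split by age between clusters: cluster 1 held most neonatal cDC1 and cluster 9 most adult cDC1, clusters 5 and 10 did the same for mature DC, while cluster 4 held all cDC2. Within cDC1, the summed cDC2 markers were at 116 to 123 counts per 1000000 UMIs (CPM) in neonatal and 531 to 568 in adult pools. Of the 12 markers, 6 were above in both adult pools and 3 in both neonatal pools. In mature DC the sum stood at 195 to 218 and 342 to 433 CPM, but only 2 of 12 markers were above in both adult pools. There 6 were above in both neonatal pools, so the sum and the count of markers went opposite ways. Single-cluster cDC2 were not free of stray markers either. Their summed macrophage markers were uneven within each age, 678 against 1355 CPM between neonatal pools, 556 against 2128 between adult ones. Erythroid markers reached 1257 CPM in cDC2 of neonatal pool 2, against 3.68 to 20.7 elsewhere. Alveolar macrophage markers summed to 190 to 256 CPM for neonatal cDC2, 422 to 435 for adult cDC2. The part of these splits and markers in the results below was not tested. The X-linked gene Xist was at 708, 603, 0.235 and 0.129 CPM and the Y-linked gene Ddx3y at 0.523, 11.8, 69.7 and 76.6 CPM, in the order neonatal pool 1, neonatal pool 2, adult pool 1, adult pool 2, so sex and age cannot be told apart. There were 14 barcodes in common between the ages.

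Outside cycling cells, histone RNA was more abundant in adult than in neonatal cells of every class that could be compared, and the ratio of adult to neonatal levels was largest in mature DC. Pools are given below in the order neonatal 1, neonatal 2, adult 1, adult 2. In mature DC the level was 2.98, 2.82, 10.6 and 9.97 histone UMIs per 10000 UMIs. Both adult pools lay far above both neonatal ones, at a mean of 10.3 ± 0.467 (SD, n = 2) against 2.90 ± 0.109, or 3.55 times as high. In cDC1 the level was 3.25, 3.27, 6.74 and 7.09, again without overlap, and adults were 2.12 times as high. In cDC2 it was 3.97, 3.18, 6.48 and 5.54, the smallest gap of the 3 DC classes, with adults 1.68 times as high and the groups still apart. These values rest on 644, 593, 275 and 202 cDC1, 260, 184, 110 and 94 cDC2 and 482, 476, 97 and 92 mature DC. A permutation of 2 against 2 pools cannot give an exact two-sided p below 0.333, which each of these differences had.

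The same direction held in the 6 other classes with enough cells. Nonclassical monocytes stood at 3.77, 3.82, 9.04 and 9.09 and classical monocytes at 4.47, 4.52, 8.56 and 8.14 per 10000. Neutrophils were at 5.80, 4.92, 15.8 and 13.7 and natural killer (NK) cells at 5.39, 4.82, 13.9 and 15. Adult pools were above neonatal ones in all of these 4. Basophils and mast cells had the highest levels of all, at 10.3, 12.1, 38.4 and 35.97, and T cells had the narrowest gap, at 3.72, 3.72, 5.23 and 5.03. Across the 9 classes the adult to neonatal ratio ran from 1.38 to 3.55, and no class had overlapping ages. Without the member with the most UMIs in the class, the neonatal minus adult level was -4.39 in NK cells in place of -9.33, -0.461 in T cells in place of -1.40, -2.15 in classical monocytes in place of -3.85 and -3.28 in nonclassical monocytes in place of -5.27. The classes come from the same 4 pools and are not independent repeats. From the level of neutrophil transcripts, free RNA could supply at most 0.780% to 6.33% of the histone level of DC pools.

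**Figure D1:**
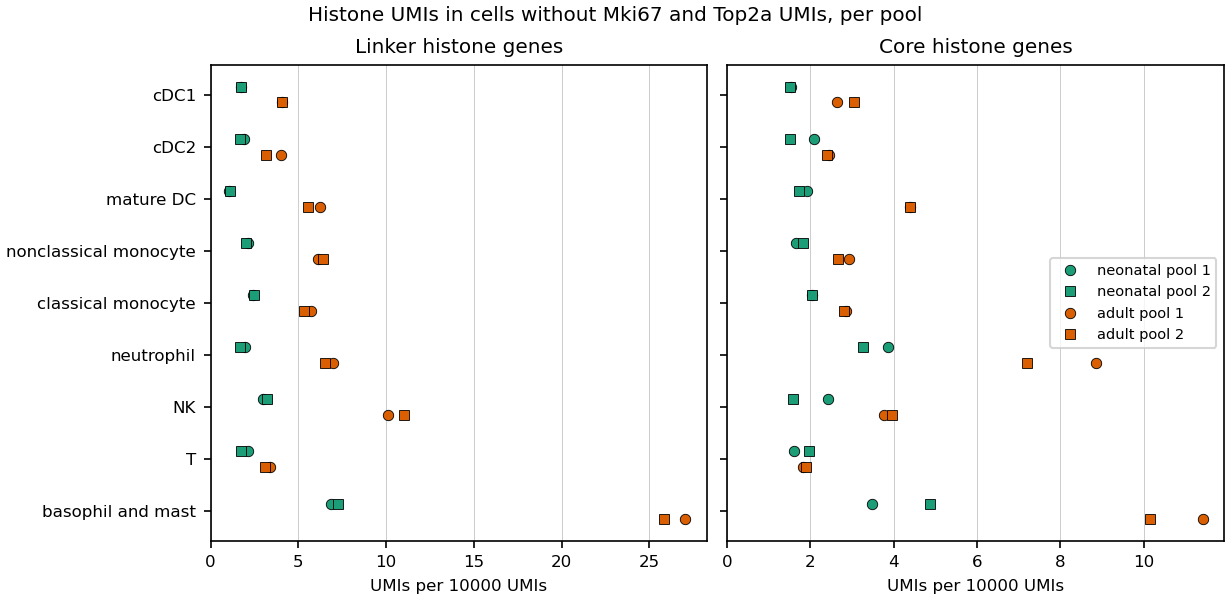
Histone UMIs per 10000 UMIs in cells without Mki67 or Top2a UMIs, for linker and core genes, by cell class and pool (green, neonatal; orange, adult; circle, pool 1; square, pool 2). Adult pools lie above neonatal pools in all 9 classes for linker genes and in 8 of 9 for core genes.

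The age gap was wider in linker than in core genes, a difference that was not tested. The linker level was 1.68 to 5.46 times as high in adults across the 9 classes, against 1.05 to 2.58 times for core genes, and 8 of the 9 classes kept the ages apart for the core. The linker share of histone UMIs was higher in adults: in mature DC it was 35.7, 39.1, 58.8 and 55.9%, in cDC1 52.7, 53.6, 60.7 and 57.2% and in cDC2 47.4, 52.5, 62.2 and 56.7%. Every adult pool was above every neonatal pool in each of these 3 classes, by 19.97 percentage points in mature DC and 5.80 in cDC1. Without Hist1h1c the gap in mature DC was 9.53 points, and after thinning cDC1 to 1000 UMIs per cell their gap was 12.6 points. More single cells also carried histone RNA in adults: after thinning, 22.8, 24.2, 58.8 and 60.9% of mature DC had a histone UMI (unthinned, 60.2, 58.4, 93.8 and 93.5%). In cDC1 the thinned share was 24.8, 27.5, 40 and 44.6% (unthinned, 75.2, 75.5, 89.8 and 90.1%) and in neutrophils, the class taken as background, 41.97, 38.6, 65.9 and 59.6%. The DC shares lay below the neutrophil shares in both ages, except for adult mature DC in pool 2, so a share of cells is not read here as expression. Median depth was 6574, 6650, 7709 and 7695 UMIs in cDC1 and 3957, 4206, 6310 and 6124 in mature DC.

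In cDC1 other cells, 12 of the 21 histone genes that passed the filter on low counts were called higher in adults and 0 higher in neonates, where 13.9% of all genes tested were called higher in adults. A gene was called at an adjusted p under 0.05 (edgeR quasi-likelihood test on pool sums, Benjamini-Hochberg over all genes). The members not tested were too low in counts, and the filter favours genes that are high in one group, so the count is a description. The median log2 difference, neonatal minus adult, was -1.02 over the tested members and near 0 over all genes. All 4 linker genes tested were among the called. Hist1h1c was at 81.3, 85.9, 190.1 and 237 CPM. Both adult pools were well above the neonatal ones, a log2 difference of -1.39 ± 0.09 (SE; edgeR adjusted p = 1.4e-14). Hist1h1e was at 63.5, 65.7, 159.6 and 118 CPM (-1.17 ± 0.11; edgeR adjusted p = 8.9e-11), and the ages did not overlap. Hist1h1b, the linker gene most tied to dividing cells below, was at 14.1, 11, 28.5 and 26.7 CPM (-1.18 ± 0.21) and Hist1h1d at 11.03, 11.3, 27.6 and 22.1 (-1.22 ± 0.22).

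Among core genes in cDC1, the H2B gene Hist1h2bc was at 31.2, 40.4, 68.7 and 78.2 CPM, with both adult pools above both neonatal ones (-1.07 ± 0.14; edgeR adjusted p = 8.5e-08). The H2A gene Hist1h2ap was at 6.95, 6.91, 18.9 and 25.4 CPM (-1.68 ± 0.26) and Hist1h2ae at 5.51, 5.88, 11.1 and 12.03 (-1.06 ± 0.32). The H4 gene Hist1h4d, at 18.9, 16.9, 29.98 and 24.7 CPM, and the H2A gene Hist3h2a, at 18.9, 18.9, 24.7 and 30.7 CPM, had the smallest differences of those called, -0.67 ± 0.20 and -0.57 ± 0.20. Low genes were called too: Hist1h2ac at 1.68, 1.02, 3.39 and 8.69 CPM (-2.06 ± 0.56) and the H4 gene Hist4h4 at 0.959, 0.256, 3.87 and 5.35 CPM (-2.82 ± 0.68). The H4 gene Hist2h4 had 3 UMIs over the neonatal and 19 over the adult pools, a ratio of 14.4 with a counting interval of 4.23 to 75.8. All of these stood above in both adult pools. Of the 12 calls, 6 were kept under DESeq2 and with any pool left out: Hist1h1b, Hist1h1c, Hist1h1d, Hist1h1e, Hist1h2ap and Hist1h2bc. Without adult pool 2 the count was 7, and 7 under DESeq2. With other cells limited to at most 2 UMIs of the cell cycle lists it was 5, namely Hist1h1b, Hist1h1c, Hist1h1e, Hist1h2ap and Hist1h2bc, and Hist3h2a then differed by 0.0133 in the opposite direction. After thinning to 1000 UMIs per cell 5 members were called. Genes not called included Hist1h3e at 6.23, 6.39, 10.2 and 11.4 CPM and Hist2h2ac at 17.5, 15.6, 20.3 and 19.4 CPM.

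Of the 3 DC classes, mature DC had the largest median difference. There 10 of 12 tested histone genes were called higher in adults and 0 in neonates, against 14.9% of all genes called higher in adults, and the median log2 difference of the tested members was -1.84. Hist1h1c was at 52.6, 55.4, 390.3 and 367 CPM. Its adult pools stood far above the neonatal ones, -2.94 ± 0.14 on the log2 scale (edgeR adjusted p = 3.2e-23). Hist1h2bc was at 39.2, 28.7, 136 and 193 CPM (-2.40 ± 0.19) and Hist1h1e at 39.7, 39.8, 198 and 122 CPM (-2.14 ± 0.19), both without overlap. Hist1h2ap, at 19.3, 12.6, 68.1 and 38.9 CPM, differed by -1.87 ± 0.29 and Hist1h2ae, at 10.4, 11.2, 31.6 and 27.04 CPM, by -1.56 ± 0.35. These 5 were also kept with any pool left out and under DESeq2, which gave no adjusted p to 2 of the 10. With other cells limited to at most 2 UMIs of the cell cycle lists 5 members were called, and after thinning to 1000 UMIs 4. The others called were the linker genes Hist1h1d (1.98, 6.31, 16.6 and 25.3 CPM; -2.43 ± 0.50) and Hist1h1b (10.9, 7.77, 18.3 and 42.2 CPM; -1.81 ± 0.38) and the core genes Hist1h4i (H4; 6.45, 4.37, 18.3 and 25.3 CPM; -2.12 ± 0.45), Hist3h2ba (H2B; 6.95, 8.26, 21.6 and 21.97 CPM; -1.64 ± 0.41) and Hist1h3e (H3; 4.96, 6.31, 13.3 and 16.9 CPM; -1.53 ± 0.49). The 2 genes not called were Hist1h4d, at 22.8, 15.5, 41.5 and 20.3 CPM, and Hist3h2a, at 35.2, 37.4, 24.9 and 30.4 CPM. In Hist3h2a the neonatal pools were the higher ones (0.26 ± 0.29; edgeR adjusted p = 0.54).

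In cDC2, 2 of 11 tested histone genes were called higher in adults and 0 in neonates, where 6.62% of all genes were called higher in adults; both were linker genes. Hist1h1c was at 88.3, 79.2, 189 and 178 CPM (-1.27 ± 0.14; edgeR adjusted p = 2.2e-07) and Hist1h1e at 69.6, 59.8, 143 and 102 CPM (-1.06 ± 0.18; edgeR adjusted p = 0.00013). For both, each adult pool was above each neonatal pool. Hist1h2bc, called in the other DC classes, was at 79.2, 36.2, 63.9 and 47.97 CPM here, with neonatal pool 1 the highest of all (-0.05 ± 0.41). The median log2 difference of the tested members was -0.86, and with no filter on low counts 4 genes were called. Fewer cDC2 than cDC1 entered the sums, and whether the age difference itself varies between DC classes was not tested.

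**Figure D2:**
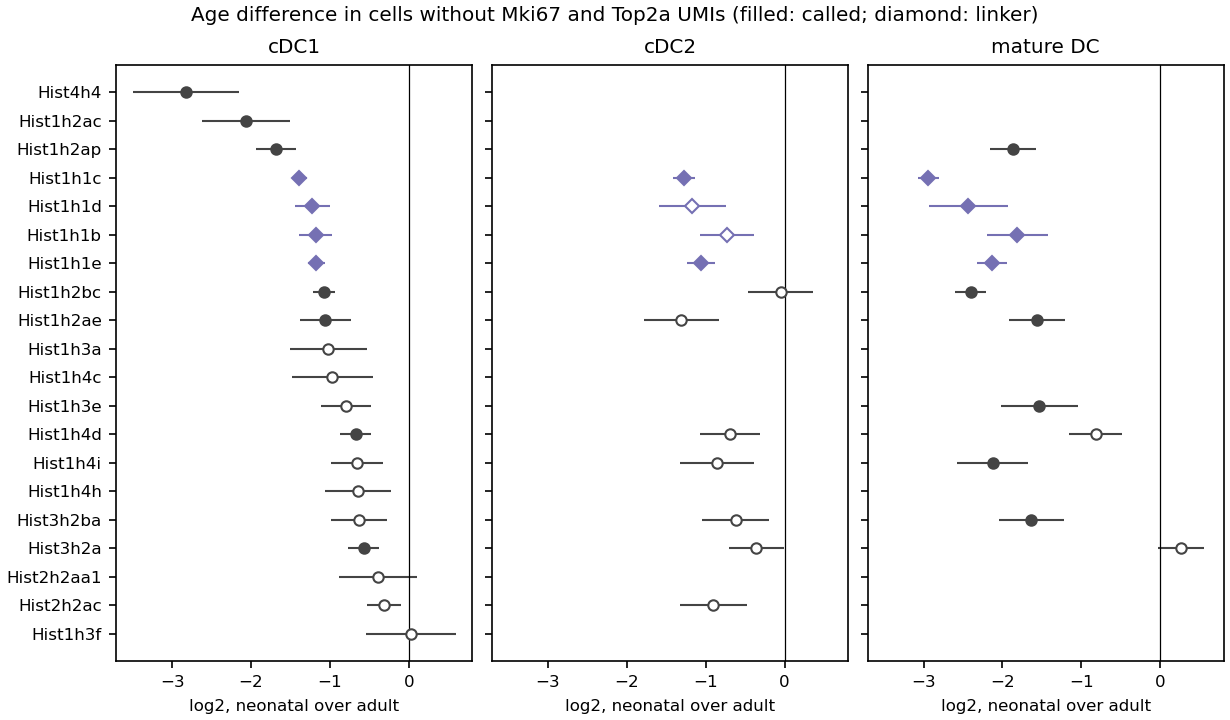
Log2 difference, neonatal minus adult, with its SE, of each tested histone gene in cDC1, cDC2 and mature DC without Mki67 or Top2a UMIs (filled, called at an adjusted p under 0.05; diamond, linker gene; circle, core gene). Values left of 0 are higher in adults; Hist2h4 in cDC1, with 3 neonatal UMIs, is left out.

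In the other classes the counts of members called higher in adults were 10 of 16 tested in nonclassical monocytes (9.58% of all genes), 10 of 16 in classical monocytes (10.9%), 6 of 7 in basophils and mast cells (3.78%), 3 of 7 in NK cells (3.17%) and 1 of 2 in T cells (5.65%). In these 5 classes 0 members were called higher in neonates. Neutrophils were the exception: 4 of 8 tested members, Hist1h1c, Hist1h2bc, Hist1h2be and Hist1h4i, were higher in adults (15.3% of all genes) and 2, Hist1h1e and Hist1h2ap, higher in neonates (15.6%). Neutrophil Hist1h1e was at 61.8, 52.7, 39.8 and 31.2 CPM (0.71 ± 0.23) and Hist1h2ap at 17.9, 28.2, 12.2 and 5.77 CPM (1.41 ± 0.41). Both neonatal pools were above both adult pools in these 2 genes. Hist1h1c, by contrast, was higher in adults in neutrophils, at 126, 105, 653 and 609.8 CPM (-2.42 ± 0.11). DESeq2 called 6 members in nonclassical monocytes, 5 in classical monocytes and 3 in neutrophils; to the member called in T cells it gave no adjusted p. Without adult pool 2 classical monocytes had 6 calls. Without neonatal pool 1 NK cells had 1, and without neonatal pool 2 or adult pool 1 T cells had 0.

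When cycling cells were left in, some of the genes most tied to division were called higher in neonatal cDC2 and T cells, and 2 in neonatal cDC1. Over all cDC1 (outside the proliferating cluster), 8 of 28 tested members were higher in adults (15% of all genes). In neonates 2 were higher, a smaller share than the 11.7% of all genes. Those 2 were the H3 gene Hist1h3c, at 7.14, 11.2, 2.46 and 0.565 CPM (2.38 ± 0.49; edgeR adjusted p = 0.00027), and the H2A gene Hist1h2ab, at 3.76, 8.14, 2.05 and 1.13 CPM (1.75 ± 0.55; edgeR adjusted p = 0.017). Neonatal pools were above adult ones in both genes. In all cDC2, 1 of 17 was higher in adults, Hist1h1c (9.01% of all genes), and 5 in neonates (6.38%). Hist1h2ae was at 103, 83.3, 13.1 and 25.7 CPM (2.13 ± 0.24) and Hist1h3c at 35.9, 27.6, 1.19 and 4.90 CPM (3.23 ± 0.47). The others were Hist1h2ap, Hist1h2ab and Hist1h4d, with log2 differences of 2.24, 1.70 and 0.72. In these fits the share of cycling cells differed between ages. Of 796, 746, 317 and 231 cDC1, 152, 153, 42 and 29 were cycling. Of 377, 242, 119 and 107 cDC2, 117, 58, 9 and 13 were. In all mature DC, 11 of 15 were higher in adults (14.5% of all genes) and 0 in neonates (13.2%). They were the 10 of the other cells and Hist1h2bg, an H2B gene at 1.80, 1.75, 7.78 and 7.80 CPM (-2.20 ± 0.73). DESeq2 called 6 members in all cDC1, 3 in all cDC2 and 6 in all mature DC, where 1 of the 11 had no adjusted p from it. After thinning to 1000 UMIs per cell, 2 members were called in all cDC1, 3 in all cDC2 and 4 in all mature DC. Leaving out either neonatal pool or adult pool 1 left 7 calls in all mature DC. In all T cells 12 of 13 tested members were higher in neonates and 0 in adults, where 233 and 264 of all 3380 genes were. Of their 65, 67, 40 and 48 cells, 28, 25, 2 and 2 were cycling. With all cells counted, the histone level was above in both adult pools in 6 of 9 classes and in both neonatal pools in 2. The adult to neonatal ratio then ran from 0.123 to 3.11.

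Cycling cells of the cDC1 lineage carried more histone RNA than other cells, several times more in the neonatal pools. The genes differed widely in how far they rose. Over all cell types, 96.5% of Hist1h3c UMIs, 90.3% of Hist1h2ab and 86.5% of Hist1h1b UMIs lay in cycling cells, against 16.7% of Hist1h1c, 18.5% of Hist1h2bc and 9.30% of Hist3h2a UMIs. In the cDC1 lineage (cDC1 and the proliferating cluster that carries cDC1 markers), cycling cells had 32.2, 29.7, 13.8 and 24.2 histone UMIs per 10000 and other cells 3.25, 3.28, 6.74 and 7.09. Every pool was higher in its cycling cells, and adult pool 1 had the smallest step. In the fit with the pool as a block, 32 of 38 tested members were higher in cycling cells, where 9.44% of all genes were, and 1 was lower, where 8.41% were. Members nearly absent from other cells pass the filter on low counts only through the cycling sums, and could hardly be called lower. This count is therefore a description, as are those for all DC, for NK cells and for the split by S phase genes below.

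Hist1h3c was at 105, 85.4, 20.02 and 26.8 CPM in cycling and 0.719, 0.510, 0.484 and 0.668 in other cells. That is close to silent outside cycling cells in every pool, and the log2 difference was 6.69 ± 0.27 (edgeR adjusted p = 9.3e-38). Hist1h2ab was at 82.9, 99.2, 15.01 and 59.6 CPM in cycling and 0.479, 0.255, 0.967 and 0.668 in other cells (6.90 ± 0.28). It was high in all cycling sums and lowest in adult pool 1. The linker gene Hist1h1b, the histone gene with the most UMIs in cycling cDC1, was at 840.4, 783, 340.3 and 698 CPM in cycling and 14.1, 10.97, 28.5 and 26.7 in other cells (5.18 ± 0.48; edgeR adjusted p = 0.0099). Hist1h2ap was at 542, 441, 105 and 253 CPM in cycling and 6.95, 6.89, 18.9 and 25.4 in other cells (4.88 ± 0.72). Both genes rose in every pool, by less in the adult pools than in the neonatal ones. Hist1h2ae, an H2A gene, was at 322, 329, 75.1 and 167 CPM in cycling and 5.51, 5.87, 11.1 and 12.03 in other cells (4.97 ± 0.51). Hist1h2af had 53 UMIs in cycling and 0 in other cells, at least 48.3-fold higher against a floor of 3 counts over the group. Hist1h3b had 68 against 1, a ratio of 186 with a counting interval of 32.2 to 7445, and Hist1h2bm 61 against 3, a ratio of 55.6 (18.1 to 277).

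The other members called in the cDC1 lineage, with the log2 difference of cycling over other cells and its SE, were as follows. The linker genes were Hist1h1a 4.41 ± 0.35 and Hist1h1d 2.37 ± 0.23. The H2A genes were Hist1h2ak 3.26 ± 0.64, Hist2h2ac 1.85 ± 0.15, Hist1h2ac 1.72 ± 0.45 and Hist2h2aa1 1.46 ± 0.38. The H2B genes were Hist1h2bb 4.85 ± 0.52, Hist1h2bj 4.34 ± 0.49, Hist1h2bh 4.20 ± 0.61, Hist2h2bb 3.86 ± 0.74, Hist1h2br 2.69 ± 0.52 and Hist1h2be 2.04 ± 0.40, with Hist1h2bn at 26 UMIs against 1. The H3 genes were Hist1h3i 3.32 ± 0.74, Hist1h3f 2.86 ± 0.30, Hist1h3e 2.50 ± 0.21, Hist1h3d 1.63 ± 0.42 and Hist1h3a 1.28 ± 0.38, and the H4 genes Hist1h4h 2.55 ± 0.26, Hist4h4 2.43 ± 0.47, Hist1h4d 2.18 ± 0.17, Hist1h4a 2.14 ± 0.56, Hist1h4c 1.61 ± 0.41 and Hist1h4i 1.23 ± 0.26. Members of all 5 families were thus called higher in cycling cells. With all DC joined, 34 of 40 tested members were higher in cycling cells (11.4% of all genes) and 1 was lower (13.5%). Without neonatal pool 1 or 2 the calls were 22 and 23 in place of 35, and after thinning to 1000 UMIs 12. The classes joined were mixed differently: cycling DC held 152, 153, 42 and 29 cDC1, 117, 58, 9 and 13 cDC2, 42, 45, 6 and 6 mature DC and 74, 49, 3 and 6 cells of the proliferating cluster. NK cells, where 3 of 10 were higher (5.75% of all genes), gave Hist1h3c, Hist1h2ab and Hist1h4d, the first 2 almost absent from other NK cells. In adult pool 2 the cycling NK cells held only 1, 0 and 3 UMIs of these genes. Hist1h2ab was there the lower in cycling cells, at 0 against 2.61 CPM.

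The genes that did not pass in the cDC1 lineage included 3 of the most abundant. Hist1h1c was at 169, 172, 175 and 221 CPM in cycling and 81.3, 86.5, 190.1 and 237 in other cells. Cycling cells were above other cells in the neonatal pools and below them in the adult pools (0.50 ± 0.28; edgeR adjusted p = 0.38). Hist1h1e was at 324, 324, 200.2 and 343 CPM in cycling and 63.5, 65.8, 159.6 and 118 in other cells (1.70 ± 0.42; edgeR adjusted p = 0.10), higher in the cycling cells of every pool. Hist1h2bc was at 73.2, 69.3, 45.04 and 110.3 CPM in cycling and 31.2, 40.3, 68.7 and 78.2 in other cells (0.61 ± 0.19; edgeR adjusted p = 0.051). Over all DC, Hist1h2bc was called higher, at 0.69 ± 0.14. Hist2h2be and Hist3h2ba were not called either. Hist3h2a was the one gene that fell, at 10.8, 7.17, 22.5 and 8.95 CPM in cycling and 18.9, 18.9, 24.7 and 30.7 in other cells (-1.06 ± 0.24; edgeR adjusted p = 0.00031). It was lower in the cycling cells of all 4 pools, though little in adult pool 1. Leaving out neonatal pool 1 or 2 left 15 and 18 of the 33 calls. In cycling cells outside the proliferating cluster 12 members were called, and after thinning to 1000 UMIs 10. In NK cells the count was 1 without neonatal pool 2 and 9 without adult pool 2.

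**Figure D3:**
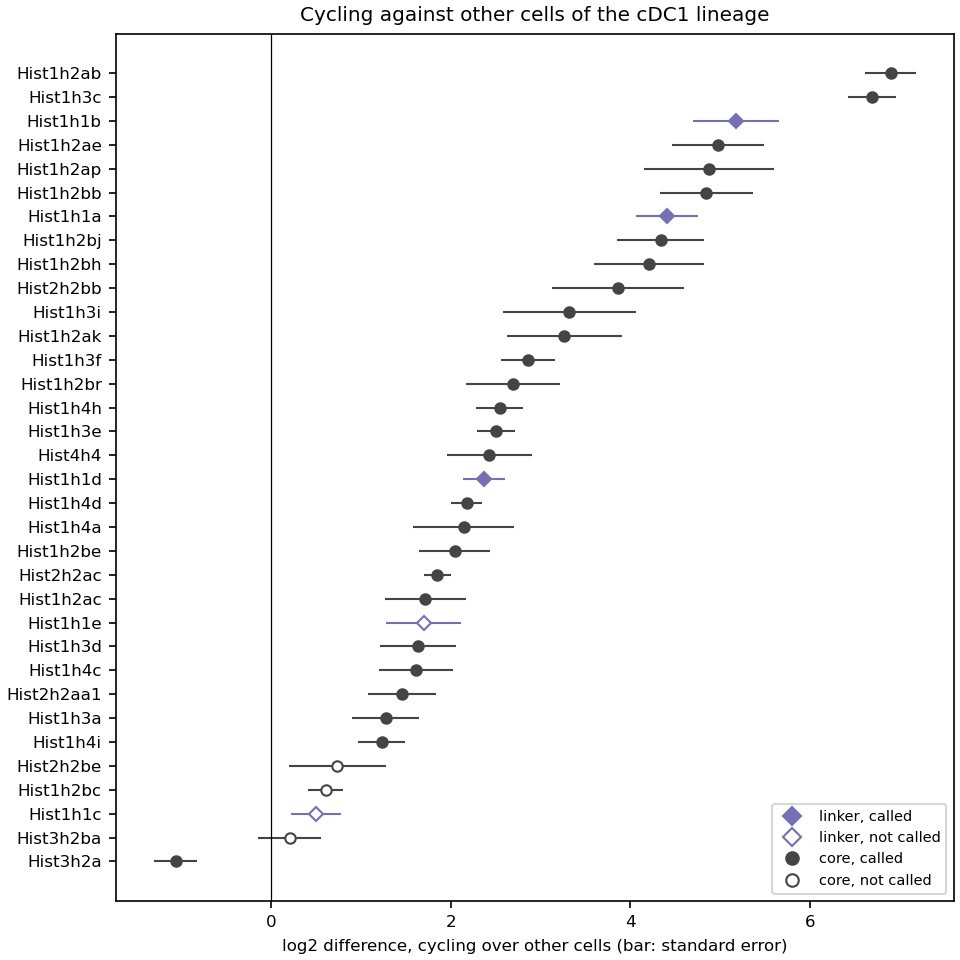
Log2 difference, cycling over other cells, with its SE, of each tested histone gene in the cDC1 lineage (filled, called at an adjusted p under 0.05; diamond, linker gene; circle, core gene). Hist3h2a lies below 0; genes with 3 or fewer UMIs in other cells (Hist1h2af, Hist1h3b, Hist1h2bm and Hist1h2bn) are left out.

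The step from other to cycling cells was larger in neonates than in adults for several members. In the cDC1 lineage the difference of the 2 steps was called for 6 of 38 members, all larger in neonates, where 0.429% of all genes were. They were Hist1h2ap (3.12 ± 0.29 on the log2 scale), Hist1h2ae (2.45 ± 0.36), Hist1h1b (1.80 ± 0.24), Hist1h1d (1.30 ± 0.31), Hist1h4d (1.22 ± 0.29) and Hist1h1c (1.07 ± 0.17). Over all DC it was called for 7 of 40 (0.356% of all genes) and in NK cells for 0 of 10 (0.0991%; edgeR, with 0 at an unadjusted p under 0.05). The same other-cell sums enter this difference and the age differences above, and those sums were lower in neonates. The cycling sums differed too: 32.7, 24.3, 6.67 and 17.1% of the cycling cDC1 lineage lay in the proliferating cluster, and Mki67 and Top2a together took 8.32, 7.69, 4.23 and 5.76 UMIs per 10000. Outside that cluster, cycling cells had 10.9, 13.7, 11.8 and 9.05 histone UMIs per 10000, with overlapping ages, and 4 members were called for the difference. Without adult pool 2 it was called for 11 members over all DC. The linker share of cycling DC was 46.3, 47.2, 55.4 and 57.6%, higher in both adult pools. The neonatal minus adult difference was -9.74 points, and -5.08 after thinning to 1000 UMIs per cell.

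Cycling DC were then divided by which list took more of their UMIs, genes of S phase (DNA replication) or of G2 and mitosis. Histone RNA was lower on the S phase side, which is set by the balance of the 2 lists and not by the level of S phase genes alone. The S phase side had 17.2, 17.2, 12.7 and 11.9 histone UMIs per 10000, and the G2 and mitosis side 39.3, 39.4, 16.4 and 30.3. In each pool the second was the higher, and the gap was narrowest in adult pool 1. The sides held 148, 129, 27 and 26 and 219, 155, 24 and 22 cells, with 54 ties left out. Of the S phase side 8.79% of cells lay in the proliferating cluster, against 24.3% of the other side, and Mki67 and Top2a took 4.66 and 10.3 UMIs per 10000. Their part in the difference was not tested. Of 25 tested members 0 were higher and 16 lower on the S phase side, where 3.65% of all genes were lower. Hist1h1e was at 144, 168, 159 and 222 CPM on the S phase side and 427, 452, 266 and 393 on the other (-1.22 ± 0.12; edgeR adjusted p = 7.8e-11). Hist1h2ae was at 148, 154, 21.5 and 72.8 and 411, 436, 129 and 185 CPM (-1.47 ± 0.13). Hist1h1c was at 73.2, 71.1, 185 and 115 and 220.2, 257, 239 and 376 CPM (-1.43 ± 0.16). All 3 were lower on the S phase side of every pool. Hist1h3d, also called, was at 0, 1.82, 0 and 0 CPM on the S phase side and 16.7, 10.7, 4.59 and 33.7 on the other. The rest of those called were Hist1h4h -1.90 ± 0.28, Hist1h4i -1.64 ± 0.32, Hist1h2ab -1.59 ± 0.20, Hist1h3f -1.44 ± 0.29, Hist1h3b -1.34 ± 0.38, Hist1h4d -1.27 ± 0.18, Hist1h1d -1.16 ± 0.18, Hist1h3e -1.14 ± 0.22, Hist2h2ac -1.07 ± 0.21, Hist1h3c -1.06 ± 0.19, Hist1h2ap -0.87 ± 0.11 and Hist1h1a -0.77 ± 0.23. Hist1h1b (-0.70 ± 0.26) and Hist1h2bc (-2.65 ± 0.65) did not pass. Without neonatal pool 1 or 2, 9 and 8 members were called, and 3 after thinning to 1000 UMIs.

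A finer split, made after the values were seen and given without a test, set cells high or low on each list at the median of cycling DC. Histone RNA was highest in the cells high on both lists, with 59.4, 59.1, 34.1 and 59.5 per 10000 and 58.3 over their 266 cells. Cells high on S phase genes only had 3.19, 2.75, 4 and 3.97. Cells high on G2 and mitosis genes only had 13.7, 14.2, 19.2 and 35.98, and cells low on both 3.64, 2.57, 8.65 and 6.35. The first group was the highest in every pool, while the adult values of the third rest on 6 and 5 cells. The first group also had the most RNA of the S phase list. That list took 48.3 UMIs per 10000 in it over all pools, against 30.4, 4.02 and 3.07 in the others in the order given. The cells richest in S phase transcripts were thus also the richest in histone RNA. Of the first group 39.8% of cells lay in the proliferating cluster, against 1.47%, 17.6% and 0% of the others in the order given, and Mki67 and Top2a took 13.9 UMIs per 10000 against 2.30, 7.32 and 1.98. Their part was not tested. Median depth was 9298 UMIs in the first group, 8682 in the second, 6860 in the third and 6738 in the last.

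**Figure D4:**
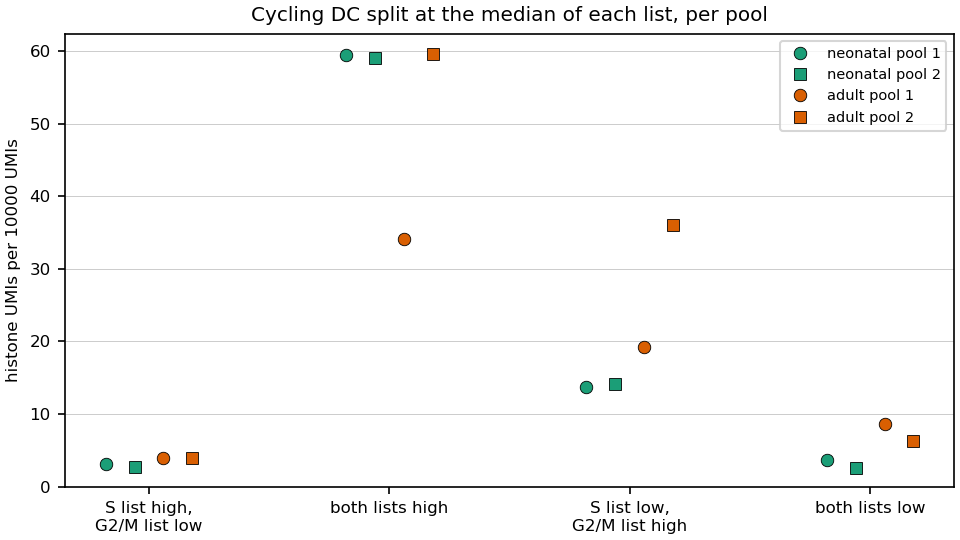
Histone UMIs per 10000 UMIs of cycling DC in 4 sets, high or low on the S phase list and on the G2 and mitosis list, by pool (green, neonatal; orange, adult; circle, pool 1; square, pool 2). The cells high on both lists reach 34.1 to 59.5; those high on S phase genes only stay at 2.75 to 4.00.

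With the cells of all pools joined, the members differed in the set where their level was highest, a description without a test. Over all pools, Hist1h1b was at 1728 CPM in cells high on both lists, 117 in those high on G2 and mitosis only, 52.5 in those high on S phase only, 19.2 in those low on both and 16.7 in other DC. Hist1h2ap, in the same order, was at 937, 82.9, 24.1, 9.58 and 14.6 CPM, and Hist1h4d at 224, 37.2, 19.8, 15.8 and 19.96 CPM. These 3, like Hist1h1e at 591, 203, 55.9, 81.2 and 82.4 CPM, were highest in the cells high on both lists. Hist1h1c was instead highest in the cells high on G2 and mitosis only, at 205, 302, 36.1, 119 and 123 CPM. Hist1h2bc was so to a greater degree, at 45.8, 333, 8.60, 65.4 and 53.6 CPM. The set high on G2 and mitosis only held 70, 55, 6 and 5 cells of the 4 pools. The joined values do not show the spread between pools, and Hist1h2bc did not pass in the fit of the 2 sides above. Hist3h2a was highest outside the cycle, at 9.41, 13.8, 6.88, 22.5 and 24.1 CPM. Cells high on S phase genes only had less Hist1h1c, Hist1h2bc and Hist3h2a than other DC.

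**Figure D5:**
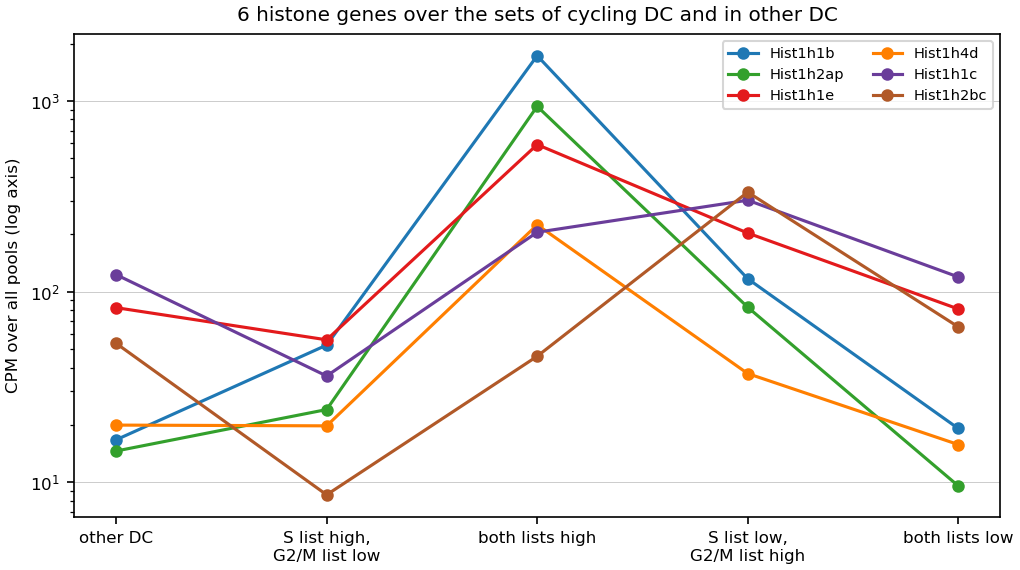
CPM of histone genes over the 4 sets of cycling DC and other DC, all pools joined, on a log axis. Hist1h1b reaches 1728 CPM in the cells high on both lists, while the joined values of Hist1h1c and Hist1h2bc are highest in the cells high on G2 and mitosis genes only. The spread between pools is not shown.

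Genes that act with the histones were read from the same fits, on the log2 scale as neonatal minus adult. Of all genes tested, 10.4% were higher in neonatal and 13.9% in adult cDC1 other cells, and 13.3% and 14.9% in mature DC. Of the histone variants, genes outside the named histone families that include H2afx and Cenpa, 2 of 9 tested were higher in adult cDC1 other cells and 5 of 9 in mature DC, with 0 higher in neonates in either class. In cDC1 these were the H3 variant gene H3f3b (-0.86 ± 0.04) and the H2A variant gene H2afz (-0.36 ± 0.04). In mature DC they included H3f3b (-0.78 ± 0.08), H3f3a (-0.66 ± 0.08), the linker variant gene H1fx (-2.10 ± 0.43) and H2afj (-0.72 ± 0.15). Of genes that process histone RNA, 1 of 16 was higher in neonates and 0 in adults in cDC1, and 1 and 3 of 15 in mature DC. Of the histone chaperones, 1 of 19 was higher in neonates and 2 in adults in cDC1, and 1 and 3 of 16 in mature DC. The G2 and mitosis list, in these cells without Mki67 or Top2a UMIs, still had 6 of 18 tested genes higher in neonatal cDC1 and 0 in adults, with Hmgb2 at 0.66 ± 0.07 and Ube2c at 1.82 ± 0.30. The S phase list had 3 of 25 higher in neonates and 0 in adults. In mature DC 1 of 13 genes of the S phase list was higher in neonates and 3 in adults, and 1 of 4 of the G2 and mitosis list was higher in neonates. In cDC2 other cells 2 of 9 variants were higher in adults, and 2 of 18 chaperones higher in neonates, where 6.62% and 3.88% of all genes were.

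In cycling cells of the cDC1 lineage, where 9.44% of all genes tested were higher, 6 of 9 variants rose, with the H2A variant gene H2afx at 2.25 ± 0.11, H2afv at 1.66 ± 0.09, H2afz at 1.04 ± 0.06 and the centromeric H3 variant gene Cenpa at 2.99 ± 0.18. Of the RNA processing genes 4 of 16 rose: Slbp, which encodes the protein that binds the stem-loop, by 1.43 ± 0.12, Eri1, a nuclease that trims it, by 1.15 ± 0.13, Casp8ap2 by 0.96 ± 0.14 and Npat, an activator of histone gene transcription, by 1.07 ± 0.26. Of the chaperones, which carry new histones to DNA, 16 of 22 rose, with Asf1b at 4.24 ± 0.22 and Nasp at 1.95 ± 0.13. In these 3 lists 0 genes were called lower. All 38 tested genes of the S phase list and all 39 of the G2 and mitosis list were also higher, a description only, since Mki67 and Top2a chose these cells. Slbp (0.78 ± 0.18) and Casp8ap2 (0.85 ± 0.19) were higher on the S phase side of cycling DC, as were 10 of 20 chaperones, where 5.29% of all genes were, with Mcm2 at 2.39 ± 0.22 and Chaf1b at 2.44 ± 0.32. The histone genes called there all lay on the other side, where 3.65% of all genes were called. So did 6 of 9 tested variants, with 0 on the S phase side, and 1 of 20 chaperones. The variant list includes Cenpa, which is also on the G2 and mitosis list that made the sides. The side of Cenpa was thus set by the split and is not read as a result.

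Members were also set side by side by how their annotated transcripts end. The 23 genes with 100 or more bases after the stem-loop held 57.5% of histone UMIs, and 33.4% of these lay in cycling cells. The 22 whose transcript stops within 100 bases of the loop held 18.0%, with 71.3% in cycling cells. The 17 with neither a loop nor a 3' part of 100 bases, Hist1h1b among them, held 16.3%, with 84.4% in cycling cells. The 5 with a longer 3' part and no loop, Hist1h2bc among them, held 8.14%, with 20.1%. Single genes weigh heavily in these shares, since Hist1h1b gave 7040 of the 8182 UMIs of its set and Hist1h2bc 3793 of 4076. The median share over the members with 20 or more UMIs was 31, 62, 75 and 32.5% in this order, so that the last set lay above the first by its median and below it by its UMIs. Over all DC, the median cycling step of tested members was 1.65, 3.98, 4.11 and 0.99 on the log2 scale in the same order. These sets are described without a test and without the share of all UMIs in cycling cells beside them, and annotated ends may not be the ends used. Near-identical copies also limit single-gene counts: 29 members share over 50% of their 60-base stretches with other members, among them Hist1h2ap with 92.9% and Hist1h3e with 68.0%, against 7.60% for Hist1h1c and 0 for Hist1h1b. In addition 7 members overlap a gene on the same strand, such as Hist1h1e with Hist1h2be and Hist3h2a with Trim17, and 21 one on the other strand.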

How the data were processed

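Gene by cell UMI counts were deposited by the authors as raw counts; per the submitters' processing notes, Cell Ranger 6.1.2, Seurat 4.2.0 and the mm10 build were used. Barcodes were assigned to pools by their suffix, which the series' own description ties to the pools. Of 14710 barcodes, 12740 were kept: 500 or more genes, 1000 or more UMIs, under 10% mitochondrial counts, under 20% of hashtag counts from the other tag, and no predicted doublet (101, 87, 21 and 14 removed in the order neonatal pool 1, neonatal pool 2, adult pool 1, adult pool 2). Cells were clustered on 2971 variable genes that leave out histone, cell cycle and sex-linked genes (scanpy 1.11.5; 30 principal components, 15 neighbours, Leiden resolution 1; 23 clusters) and named from marker lists; 2 clusters stayed unnamed.

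UMIs were summed per pool and class and tested with edgeR 4.0.16 (quasi-likelihood, TMM, filterByExpr) with Benjamini-Hochberg adjustment over all genes tested; DESeq2 1.42.0 was an alternative. Single values per pool were compared by an exact two-sided permutation test. Classes needed 20 cells in every pool, and cycling fits 10 cycling cells, which cDC2 and mature DC missed. The age fit was tested on simulated data: of 50 genes changed 2-fold in the sums of all cDC1, 68% were called, and 94% of 50 changed 4-fold. Pool numbers did not pair the pools across ages: deviations of same-numbered pools correlated at -0.01 in cDC1, 0.07 in cDC2 and 0.06 in mature DC. Described one by one are the 15 genes with most UMIs and every member called in the DC, cycling or S phase fits; every member with 20 or more UMIs is given a value. The members and lists were chosen with earlier results of these data known. Intervals cover counting error only (95%, exact).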

Additional observations from a re-analysis of the deposited data

Results flagged for a closer look

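The step from other to cycling cells differed between the ages, by a test of the difference itself, for 6 histone genes in the cDC1 lineage and 7 over all DC. The values are the neonatal minus the adult log2 step with its SE, and all were larger in neonates. In the cDC1 lineage they were Hist1h2ap 3.12 ± 0.29 (edgeR adjusted p = 3.1e-18), Hist1h2ae 2.45 ± 0.36 (edgeR adjusted p = 2.7e-07), Hist1h1b 1.80 ± 0.24 (edgeR adjusted p = 1.2e-07), Hist1h1d 1.30 ± 0.31 (edgeR adjusted p = 0.0097), Hist1h4d 1.22 ± 0.29 (edgeR adjusted p = 0.01) and Hist1h1c 1.07 ± 0.17 (edgeR adjusted p = 1.3e-06). Over all DC, which contain the cDC1 lineage, they were Hist1h2ab 3.20 ± 0.71 (edgeR adjusted p = 0.014), Hist1h2ae 2.63 ± 0.25 (edgeR adjusted p = 7.1e-09), Hist1h3e 1.52 ± 0.35 (edgeR adjusted p = 0.022), Hist1h1d 1.40 ± 0.28 (edgeR adjusted p = 0.0078), Hist1h1c 1.20 ± 0.14 (edgeR adjusted p = 1.3e-06), Hist1h4d 1.15 ± 0.25 (edgeR adjusted p = 0.014) and Hist1h2bc 0.80 ± 0.18 (edgeR adjusted p = 0.015). Of these, Hist1h2ap, Hist1h2ae and Hist1h1c in the cDC1 lineage and Hist1h1c and Hist1h2ae over all DC were also called under DESeq2 and with any pool left out. DESeq2 gave no adjusted p to 31 of the 38 members tested for this in the cDC1 lineage, 1 of the 6 among them. The other-cell sums, lower in neonates, enter this difference too, and Hist1h1c differed more by age in other than in cycling cells. Of the cycling cDC1 lineage 32.7 and 24.3% of neonatal and 6.67 and 17.1% of adult cells lay in the proliferating cluster. Outside it, histone levels of cycling cells overlapped between the ages. The part of these differences was not tested.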

How the results depend on the processing

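Values in brackets are those reported above. DESeq2 called 6 histone genes in all cDC1 (10), 7 in cDC1 other cells (12), 3 in all cDC2 (6), 6 in all mature DC (11), 6 in nonclassical monocytes (10), 5 in classical monocytes (10), 3 in neutrophils (6), 0 in T cells (1) and 5 in cycling NK cells (3). It gave no adjusted p to the T cell member, to 1 of those called in all mature DC, 2 in mature DC other cells, 2 in basophils and mast cells and 1 of the 6 with a different cycling step in cDC1, where 31 of 38 members had none; these are not counted as lost. With cells thinned to 1000 UMIs, which leaves fewer counts, the calls were 2 in all cDC1, 5 in cDC1 other cells, 3 in all cDC2, 1 in cDC2 other cells (2), 4 in all mature DC, 4 in mature DC other cells (10), 10 in cycling cDC1 (33), 12 in cycling DC (35) and 3 on the S phase side (16). With other cells limited to 2 UMIs of the cell cycle lists, 5 were called in cDC1 and 5 in mature DC, and Hist3h2a in cDC1 reversed to 0.0133 (-0.57); the cause was not tested. With no filter on low counts, 4 were called in cDC2 other cells and 11 in cycling NK cells, which also had 11 with a total of 10 UMIs, 5 with no replicate block and 10 with Mki67 and Top2a UMIs of 2 or more. Cycling cDC1 outside the proliferating cluster had 12.

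With 1 pool left out, where the lone pool of an age is assumed to vary like the others, the calls ranged from 7 to 12 in all cDC1, 7 to 10 in cDC1 other cells, 5 to 8 in all cDC2, 2 to 3 in cDC2 other cells, 7 to 8 in all mature DC, 7 to 10 in mature DC other cells, 7 to 8 in nonclassical monocytes, 6 to 8 in classical monocytes, 4 to 6 in neutrophils, 1 to 3 in NK cells, 0 to 1 in T cells, 4 to 7 in basophils and mast cells, 15 to 35 in cycling cDC1, 22 to 34 in cycling DC, 1 to 9 in cycling NK cells and 8 to 21 on the S phase side. For the difference of the cycling step between ages they ranged from 4 to 9 in cDC1, 6 to 11 over all DC and 0 to 3 in NK cells. The replicate block, in which pools share only a number, gave 15 calls in all cDC1 and 12 in cDC1 other cells, and 7, 3, 12 and 10 in all cDC2, cDC2 other cells, all mature DC and mature DC other cells. No replicate block gave 30 calls in cycling cDC1, 33 in cycling DC and 13 on the S phase side.

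The neonatal minus adult histone level per 10000, without the member with the most UMIs, was -2.92 in cDC1 (-3.66), -6.20 in mature DC (-7.40), -3.28 in nonclassical monocytes (-5.27), -2.15 in classical monocytes (-3.85), -4.39 in NK cells (-9.33), -0.461 in T cells (-1.40) and -19.2 in basophils and mast cells (-26.0), where it was -18.7 without cells over 1% histone UMIs. The linker share difference after thinning was -12.6 points in cDC1 (-5.80), -24.0 in mature DC (-20.0) and -5.08 in cycling DC (-9.74), and without Hist1h1c it was -9.53 in mature DC and -6.64 in cycling DC. The share of cells thinned to 2000 UMIs differed by -16.8 points in cDC2 (-9.49) and -33.9 in mature DC (-36.3). All these levels and shares kept their direction, and the other 246 recomputed counts and levels stayed close to the reported ones. Single genes stayed on their side of the threshold in 2145 recomputations, dropped below it in 200 and rose past it in 56.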

Other observations

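In T and in NK cells, cycling cells had more histone RNA than other cells of the class in 3 of 4 pools; the exceptions were T cells of adult pool 1 and NK cells of adult pool 2. Cycling T cells had 91.05, 77.2, 4.77 and 18.7 histone UMIs per 10000 in the order neonatal pool 1, neonatal pool 2, adult pool 1, adult pool 2, on 28, 25, 2 and 2 cells. Cycling NK cells had 44.4, 63.98, 105 and 11.3, on 11, 21, 17 and 15 cells, and the 2 adult pools were the highest and the lowest. In NK Hist1h1b, the linker gene with the most UMIs in cycling cDC1, stood at 945, 1897, 3141 and 226 CPM in cycling cells. B cells, too few for a comparison, had 890, 51, 45 and 259 histone UMIs in 22, 9, 5 and 16 cells, and 3 cells of neonatal pool 1 held 54.8% of those of their pool.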
